A study of Canis lupus familiaris with 14 samples.

Results

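The immunoglobulin lambda region of dog chromosome 26 was examined in whole blood RNA of dogs, in 7 libraries of lymphoma, a cancer of lymphocytes, and 7 control libraries, which the study's design text gives as a disease other than lymphoma. It was taken as the genes of chromosome 26 whose smallest start lies from 24500000 to 28000000 in the CanFam3.1 assembly, which are 99 of the 30951 genes listed. Within it, 24 genes with 2 exons and 250 to 600 exonic bases were set apart as V-like, and the other 75 were kept as a second class. The labels call the first group Lymphoma with condition Disease and the second Non-lymphoma with condition Control, and name no lineage, stage, breed, age, sex or treatment for either. RNA was extracted from blood with Trizol. Which animals the libraries came from is not given, and a p-value therefore reflects variation among libraries, which may be technical in part. TMM factors, which adjust library size, were 0.670 to 1.15 in lymphoma, lowest in replicates 2 and 7, and 0.869 to 1.31 in non-lymphoma.

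An immunoglobulin light chain is assembled in each B cell by joining 1 variable (V) segment to a joining segment, which is then spliced to a constant region. A germline V segment usually has a short leader exon and a longer exon that codes for the variable domain. Each B cell and its descendants keep the joined V segment, so blood with many unrelated B cells carries RNA of many V segments. Dogs use the lambda light chain far more than the kappa one. In whole blood, fewer B-lineage cells and less immunoglobulin RNA per cell cannot be told apart.

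The count table gives identifiers and positions without gene names, and the RefSeq gene table of another assembly, UU_Cfam_GSD_1.0, matched 0 of the identifiers. The name of the region could therefore not be checked against marker genes. In that other assembly chromosome 26 carries 39 of 186 annotated V segments and 5 constant regions. They follow SLC5A1 and SLC5A4, enclose ZNF280B and PRAME, and precede RSPH14, GNAZ, RAB36 and BCR. Positions were not compared between the assemblies, and no name or role is given to a gene of the table. Genes are numbered here from 1 to 99 along the region, and V-like describes exon structure alone.

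The 24 V-like genes began between 25050264 and 27974669, 15 of them on the plus and 9 on the minus strand, with a median of 414 exonic bases. The last of them, gene 99, lies within the span of the long gene 98 and is V-like by structure only. Spans of 17 overlapped another gene, but only 3 shared exonic bases with one. The 75 other genes comprised 12 with 1 exon, 19 with 2 exons and a length outside the V-like limits, and 44 with more exon entries. Genes 14 and 23 had the same structure on opposite strands, with exons of 7 and 407 bases and an intron of 451 bases. Whether their sequences match was not tested. If they do, reads that fit both genes could not be placed with certainty, and the counts of such pairs are uncertain to that extent.

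The region had been chosen because it was lower in lymphoma in these same libraries, so differences between the groups within it are descriptive and carry no p-value. The first gene inside the lower limit had a median of 34.7 CPM, the count scaled to library size with TMM factors, in lymphoma and 51.7 in non-lymphoma libraries, and the last gene before that limit had 28.3 CPM in lymphoma and 25.2 CPM in non-lymphoma. At the upper limit the last gene inside had medians of 0 CPM in lymphoma and 0.0878 CPM in non-lymphoma, and the first gene beyond it 20.3 CPM in lymphoma and 18.2 CPM in non-lymphoma. At the length limit, gene 9 with 593 bases was V-like, and gene 56 with 626 bases was not; gene 56 had 0 counts in lymphoma and 1 count in non-lymphoma in all.

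Summed over the 24 V-like genes, lymphoma libraries held 1.56 to 86.2 CPM with a median of 4.53, and non-lymphoma libraries 26.5 to 68.5 CPM with a median of 32.9. For these 24 genes, the groups met only through 1 library. Lymphoma replicate 1 lay above every non-lymphoma library, and the other 6 lymphoma libraries, the highest of them at 17.3 CPM, lay below every one. On the log2 scale the means were 2.96 ± 1.98 in lymphoma and 5.25 ± 0.54 in non-lymphoma (SD, n = 7 each), a difference of -2.29, and of -2.87 without lymphoma replicate 1. The spread among lymphoma libraries was the wider one.

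The 75 other genes summed to 333 to 791 CPM in lymphoma with a median of 620, and to 586 to 1165 CPM in non-lymphoma with a median of 688. Their mean log2 level was 9.08 ± 0.45 in lymphoma and 9.56 ± 0.37 in non-lymphoma (SD, n = 7 each), and the groups overlapped. The difference was -0.48. Genes 3, 5 and 89 weighed most in these sums, with medians of 178, 84.4 and 119 CPM in lymphoma. In non-lymphoma their medians were 170, 158 and 132 CPM. The sums therefore say little of the less abundant other genes. All 7 non-lymphoma libraries but only 2 of 7 lymphoma libraries carry 5-digit numbers in their labels, so label form and group are largely confounded. Among those libraries alone, 2 against 7, the differences were -2.86 for the V-like and -0.06 for the other genes. V-like genes made up 0.235 to 18% of the region's counts in lymphoma, median 0.903%, and 3.67 to 8.58% in non-lymphoma, median 4.31%.

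**Figure D1:**
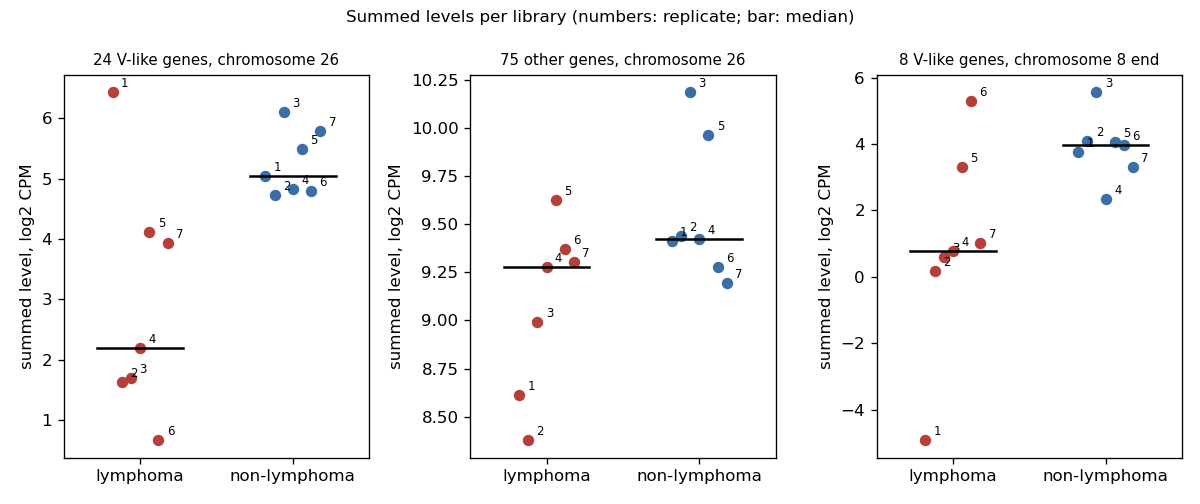
Summed level in log2 CPM (vertical axes) of the 24 V-like genes and the 75 other genes of the chromosome 26 region and of 8 V-like genes at the end of chromosome 8, with lymphoma left of non-lymphoma; each point is a library numbered by replicate and each bar is the median of 7. In the first panel 6 lymphoma libraries lie below and 1 above all non-lymphoma libraries; in the third panel the lowest point is lymphoma replicate 1, which had 0 counts.

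Detection followed the same order. Lymphoma libraries held at least 1 count for 3 to 10 of the 24 V-like genes, mean 7 ± 2.89, and non-lymphoma libraries for 10 to 16, mean 14 ± 1.91 (SD, n = 7 each). Lymphoma libraries were shallower, with 9845059 to 14831589 counts in all against 13522628 to 21610927 in non-lymphoma. After all libraries were thinned to 9845059 counts, the expected numbers were 6.87 ± 2.82 in lymphoma and 12.8 ± 1.47 in non-lymphoma (SD, n = 7 each). At a minimum of 10 counts, 0 to 4 V-like genes were seen in lymphoma and 6 to 10 in non-lymphoma. Of the 24, 5 had no count in any library, 1, gene 83 with 2 counts, was seen in lymphoma alone and 4 in non-lymphoma alone. Gene 68 was the only V-like gene detected in all 7 lymphoma libraries, while 10 were detected in all 7 non-lymphoma libraries. Over the whole region 27 to 48 genes were detected in lymphoma and 54 to 73 in non-lymphoma.

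A quasi-likelihood test (edgeR, Benjamini-Hochberg adjusted p under 0.05) was run on all 12836 genes that passed the filter on low counts. Of these, 950 were called lower in lymphoma and 1182 higher (1181 lower and 985 higher with upper-quartile factors), so 7.4% of tested genes were called lower, 9.21% higher and 16.6% in either direction. Only 29 of the 99 region genes were tested, 5 of 24 V-like and 24 of 75 others. Called lower were 4 V-like and 6 other genes, and 0 were called higher by edgeR, 0 at an unadjusted p under 0.05 and 0 by DESeq2. The median log2 fold change was -2.60 over the 5 tested V-like genes, -0.54 over the 24 tested others and -0.05 over all genes tested. Genes that pass such a filter through the non-lymphoma libraries alone had to be lower in lymphoma, and the region was chosen on this contrast, so these counts are given without a reading.

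Gene 68 (ENSCAFG00000046397, 26869173 to 26870480, plus strand, 303 exonic bases) was the most abundant V-like gene per base over all 14 libraries, with a mean of 10.5 CPM per kilobase in lymphoma and 69.4 in non-lymphoma. In lymphoma alone, gene 14 had the higher mean, 21.1 CPM per kilobase, from replicate 1. The level of gene 68 was 0.758 to 11 CPM in lymphoma, median 0.923, and 6.4 to 39 CPM in non-lymphoma, median 13.8. Lymphoma replicates 5 and 7 reached into the lower part of the non-lymphoma range, and the other 5 lay below all of it. The log2 fold change was -2.73 (SE 0.66). Gene 68 led the V-like counts in 4 lymphoma and 6 non-lymphoma libraries. Its share of V-like counts was 35.5 ± 21.9% in lymphoma and 49 ± 16.3% in non-lymphoma (SD, n = 7 each).

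Gene 63 (ENSCAFG00000042504, 26746348 to 26761041, plus strand, 408 bases) was the second most used by its mean share in non-lymphoma, 17.9 ± 12.2% of V-like counts in lymphoma and 16.2 ± 16.7% in non-lymphoma (SD, n = 7 each). Its level was 0 to 2.1 CPM in lymphoma, median 0.909, and 1.57 to 14.7 CPM in non-lymphoma, median 3.45. It led the V-like counts of lymphoma replicate 4 and non-lymphoma replicate 6, and 6 of 7 lymphoma libraries were below every non-lymphoma one. The log2 fold change was -2.60 (SE 0.64).

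Gene 79 (27330798 to 27332041, plus strand, 303 bases) had 0 to 2.54 CPM in lymphoma, median 0, and 1.12 to 6.45 CPM in non-lymphoma, median 2.59. Only lymphoma replicate 7, with 17 counts, overlapped the non-lymphoma libraries, and 4 lymphoma libraries had none. The fitted log2 fold change of -3.08 (SE 0.92) became -5.48 without that library. Gene 9 (25050264 to 25050968, plus strand, 593 bases) had 0 to 2.24 CPM in lymphoma, median 0.552, and 1.33 to 9.79 CPM in non-lymphoma, median 2.46, a log2 fold change of -2.32 (SE 0.71). Gene 23 was the tested V-like gene that was not called, at -0.17 (SE 0.73); with lymphoma replicate 1 left out its log2 fold change was -1.78.

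Gene 67 (26839854 to 26840417, plus strand, 300 bases), too low to be tested, had 1 count over the 7 lymphoma libraries and 5 to 40 counts in each non-lymphoma library. It was the only V-like gene with every lymphoma library below every non-lymphoma one. Gene 53, a 2-exon gene of 1007 bases, was the only other region gene of that kind, at 0 counts in all lymphoma libraries and 1 to 21 counts in non-lymphoma ones. Among all 28663 genes with a count, 0.963% were separated in this way. Gene 31 had 0 to 0.15 CPM in lymphoma and 0.109 to 3.08 CPM in non-lymphoma. Gene 65 had 0 to 1.36 CPM in lymphoma and 0.328 to 8.68 CPM in non-lymphoma, where replicate 3 alone held 181 of 257 counts. The groups of gene 65 overlapped, and 3 lymphoma libraries lay below every non-lymphoma one.

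**Figure D2:**
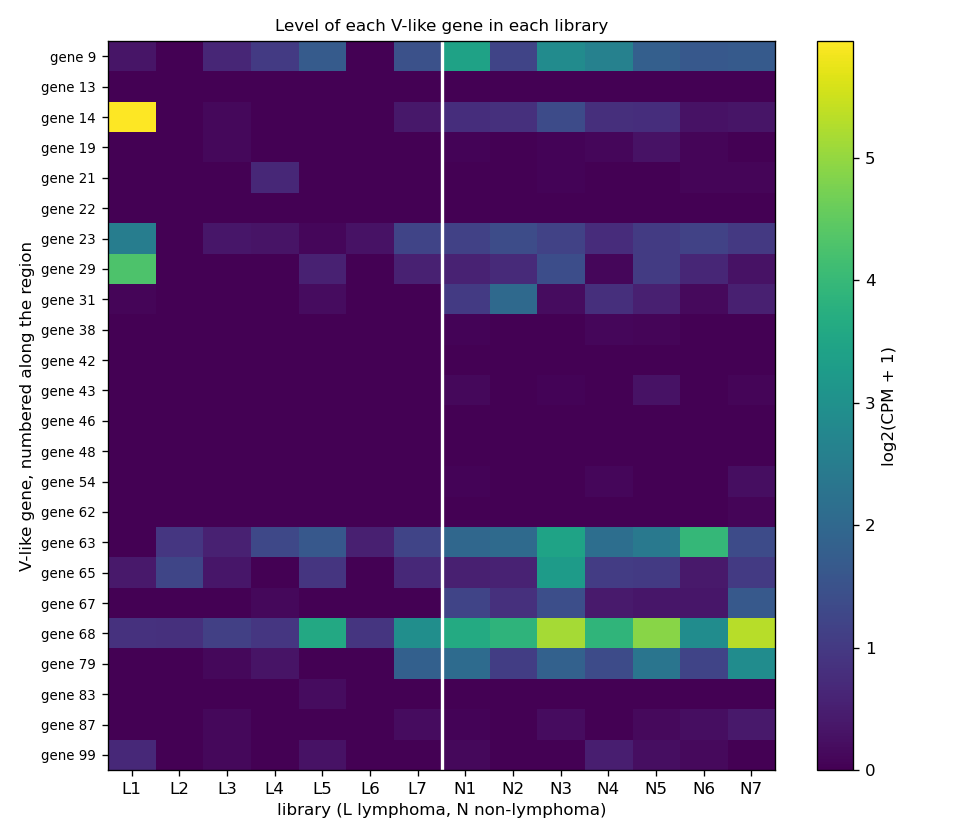
Level of each of the 24 V-like genes, numbered along the region (rows), in each of 14 libraries (columns, lymphoma left of non-lymphoma), as log2(CPM + 1). The row of gene 68 is bright across the non-lymphoma libraries, and gene 14 is the brightest cell of the plot, in lymphoma replicate 1 alone.

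Single genes dominated in some lymphoma libraries. Gene 14 (25156607 to 25157471, plus strand, 414 bases) had 919 counts, or 60.8 CPM, in lymphoma replicate 1. In the other lymphoma libraries it had 0 to 2 counts, and in the non-lymphoma libraries 4 to 33 counts, at most 1.58 CPM. It took 70.6% of the V-like counts of lymphoma replicate 1 (95% Wilson interval 68.1 to 73%, counting error only). Gene 29 (25477804 to 25478663, minus strand, 366 bases) had 280 counts in the same library, 0 to 6 in the other lymphoma libraries and 1 to 34 in the non-lymphoma ones. Gene 23, the mirrored counterpart of gene 14, had 72 counts there. All V-like genes of this library together had 1302 counts.

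As a group measure, the share of the leading V-like gene did not separate the libraries. It was 31.5 to 70.6% in lymphoma, median 45%, and 34.6 to 70.9% in non-lymphoma, median 51.1%. Several of these lymphoma shares rest on few counts, with 20, 35, 54 and 21 V-like counts in replicates 2, 3, 4 and 6, and their intervals are wide, for example 25.8 to 65.8% in replicate 2. The effective number of V-like genes, the inverse of the summed squared shares, was 1.83 to 4.84 in lymphoma, median 2.82, and 1.92 to 4.33 in non-lymphoma, median 3.32. Pairs of lymphoma libraries shared a median of 50.4% of V-like usage, counted as the sum of the smaller share at each gene. Pairs of non-lymphoma libraries shared 67.9%, over 21 pairs in each group. The 49 pairs across the groups shared a median of 59.9%. These overlaps also rest on the few V-like counts of lymphoma replicates 2, 3, 4 and 6, and were not matched for counts. Lymphoma replicate 1 stood lowest, with a median overlap of 8.41% with the non-lymphoma libraries.

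The 2-exon rule leaves out short genes with another annotated structure. After the values were seen, a wider class of 51 genes with 1 to 3 exons and 250 to 700 bases was formed, made of the 24 V-like genes, 8 with 1 exon, 7 longer ones with 2 exons and 12 with 3 exons. The counts of this class, not scaled to library size, summed to 45 to 1595 in lymphoma, median 557. In non-lymphoma they summed to 601 to 2891, median 1510. On these unscaled counts, lymphoma replicates 1, 5 and 6, with 1326, 907 and 1595 counts, lay within the non-lymphoma range. Replicate 3, with 557 counts, lay close below it. Lymphoma libraries were shallower, so scaling to library size could place more of them within that range. In this class the leading gene took 16.7 to 95.9% of counts in lymphoma, median 42.4%, and 24.8 to 47.6% in non-lymphoma, median 32%. The lymphoma libraries spread to both sides of the non-lymphoma range. The class was chosen with the values known, and its numbers are descriptive.

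Lymphoma replicate 6 was the most extreme. Gene 55 (26378728 to 26412741, 3 exons, 393 bases) had 1530 counts there, or 113 CPM, which was 95.9% of the short-gene counts (95% Wilson interval 94.8 to 96.8%). The same gene had 2 to 81 counts in the other lymphoma libraries and 62 to 283 counts, at most 15.8 CPM, in the non-lymphoma libraries. Over the group its level was 0.168 to 113 CPM in lymphoma, median 1.01, and 4.32 to 15.8 CPM in non-lymphoma, median 8.19. Thus a gene that led in 1 lymphoma library was below the whole non-lymphoma range in 4 of the others.

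Lymphoma replicate 3 was led by gene 18 (25200009 to 25200317, 1 exon, minus strand) with 358 counts, 64.3% of its short-gene counts (95% Wilson interval 60.2 to 68.1%). That gene had 0 to 33 counts in the other lymphoma libraries and 7 to 132 counts in the non-lymphoma ones. Lymphoma replicate 5 was led by gene 77 (27164876 to 27165680, 2 exons, 689 bases) with 385 counts, or 42.4%. Gene 78 (27265121 to 27501040, 20 exon entries) had 1763 counts there, or 132 CPM, 6 to 78 counts in the other lymphoma libraries and 199 to 1154 counts in the non-lymphoma ones. Among the short genes, lymphoma replicate 4 was led by gene 51 with only 40 counts. The leading short gene had 9 counts in lymphoma replicate 2 and 45 in lymphoma replicate 7. The non-lymphoma libraries were led by gene 35, 63 or 68. Genes 51, 53, 56, 77, 78 and 83 were named after their values were seen.

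**Figure D3:**
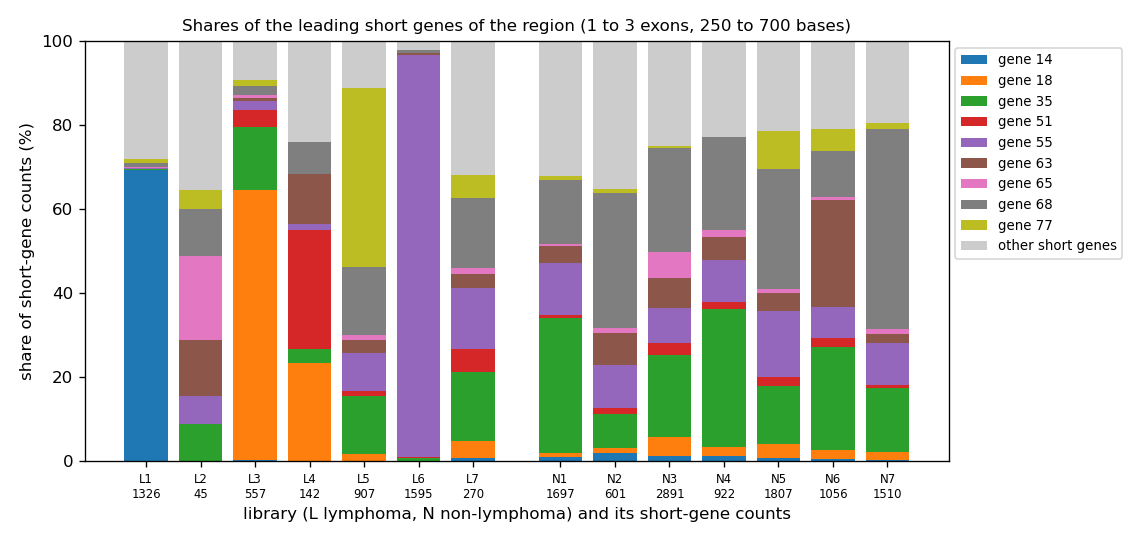
Share of the summed counts of the 51 short genes (vertical axis, percent) taken by each gene that leads at least 1 library, with lymphoma bars left of non-lymphoma bars and the counts under each library name. Different genes fill most of the bars of lymphoma replicates 1, 3 and 6, while each non-lymphoma bar is led by gene 35, 63 or 68. Across the non-lymphoma bars these genes take 8.15 to 33%, 1.92 to 25.5% and 11.1 to 47.6%.

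Among the other genes of the region, gene 89 (27615046 to 27616193, plus strand, 4 exon entries, 755 bases) was the most abundant per base, with 115 CPM per kilobase in lymphoma and 192 in non-lymphoma. Its level was 5.36 to 163 CPM in lymphoma, median 119, and 68 to 288 CPM in non-lymphoma, median 132. It was not called (log2 fold change -0.74, SE 0.59), and lymphoma replicates 1, 2 and 3 lay below every non-lymphoma library. Its neighbours are gene 88 (27583633 to 27585871, 2 exons, 2018 bases) and gene 90 (27620229 to 27628557, 3 exons, 939 bases). Neither neighbour was called.

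The balance among these 3 adjoining genes was wide in lymphoma and narrow in non-lymphoma. Gene 89 took 7.49 to 99.1% of their counts in lymphoma, mean 66.7 ± 33.2%, and 76 to 86.2% in non-lymphoma, mean 81.4 ± 3.17% (SD, n = 7 each). In lymphoma replicate 1 gene 88 led with 639 of 1082 counts, 59.1% (95% Wilson interval 56.1 to 62%), where non-lymphoma libraries had 4.2 to 9.6%. In lymphoma replicate 3 gene 90 led with 339 of 719 counts, 47.1% (95% Wilson interval 43.5 to 50.8%), where non-lymphoma libraries had 9.34 to 18.8%. Lymphoma replicates 4 and 6 lay at the other end, with gene 89 at 99.1% and 98.6%. For the share of gene 89, 6 of 7 lymphoma libraries were outside the non-lymphoma range, 4 below it and 2 above it, and replicate 7 was within it. Among those below, replicate 2 had only 109 counts of the 3 genes. Its share of 68.8% had a 95% Wilson interval of 59.6 to 76.7%, which reached into the non-lymphoma range. Short-gene counts per 100 counts of the 3 genes were 7.68 to 123 in lymphoma, median 41.3, and 26 to 91.5 in non-lymphoma, median 47.1. The lowest was lymphoma replicate 4 and the highest lymphoma replicate 1. The 3 genes were picked for this comparison after their values were seen.

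**Figure D4:**
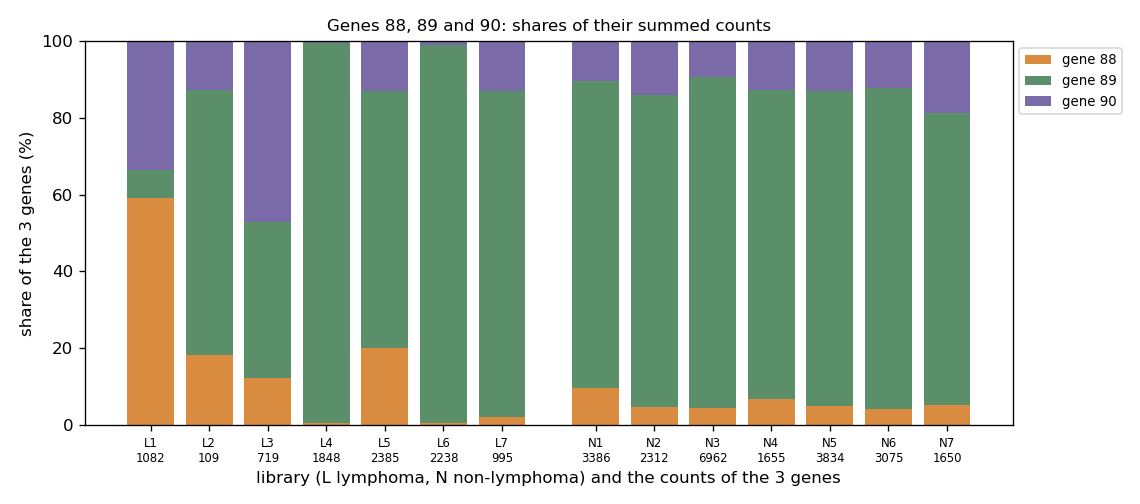
Share (vertical axis, percent) of the summed counts of the adjoining genes 88, 89 and 90 in each library, with lymphoma left of non-lymphoma and the counts under each name. Gene 89 holds 76 to 86.2% in every non-lymphoma bar and 7.49 to 99.1% across the lymphoma bars.

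The other called genes lay in 2 settings. Genes 20, 35, 37, 66 and 71 lie between V-like genes and had log2 fold changes of -2.68 (SE 0.78), -2.18 (SE 0.72), -2.52 (SE 0.75), -2.11 (SE 0.69) and -2.31 (SE 0.67). Gene 35 (25672161 to 25672931, 2 exons, 667 bases) would be V-like but for its length, and had 0.132 to 9.35 CPM in lymphoma, median 0.741, and 3.43 to 27.2 CPM in non-lymphoma, median 14.1. Genes 20 and 37 extend over long spans, 25233274 to 25478680 and 25778797 to 25976985, that enclose several other annotated genes. Gene 5 (24785368 to 24795778, 4 exon entries) lies before the first V-like gene, with 55.9 to 115 CPM in lymphoma, median 84.4, and 66.1 to 340 CPM in non-lymphoma, median 158, and a log2 fold change of -1.07 (SE 0.30). Its groups overlapped, with 2 lymphoma libraries below all non-lymphoma ones.

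The flanking genes 1 and 3 were not called. Gene 3 (24570880 to 24622166) had 163 to 211 CPM in lymphoma, median 178, and 120 to 216 CPM in non-lymphoma, median 170, with a log2 fold change of 0.09 (SE 0.17). Gene 1, the first of the region, had a log2 fold change of -0.55 (SE 0.24). Of the 91 region genes with any count, 21 had at least 5 lymphoma libraries below every non-lymphoma library, against 6.15% of all genes with a count. These 21 were 8 V-like and 13 other genes, and nothing is read from the count, since the region was chosen on this contrast.

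The calls depended on single libraries. Genes 5, 63 and 68 were called in all 14 fits that left out 1 library. Gene 20 was lost when lymphoma replicate 2 was left out and when non-lymphoma replicate 5 was. Gene 71 was lost when lymphoma replicate 2 was left out and when non-lymphoma replicate 6 was. Gene 37 was called in 9 of these fits, and lost when replicate 1, 2 or 4 of lymphoma or replicate 1 or 3 of non-lymphoma was left out. Gene 9 was called in 7, and lost when any of replicates 1 to 4 of lymphoma or replicate 1, 3 or 4 of non-lymphoma was left out. Gene 79 was called in 7, and lost when any of replicates 1 to 5 of lymphoma or replicate 5 or 7 of non-lymphoma was left out. Gene 66 was called in 4, those that left out replicate 5 or 7 of lymphoma or replicate 1 or 4 of non-lymphoma. Gene 35 was called in 3, those that left out replicate 3 or 5 of lymphoma or replicate 2 of non-lymphoma. In all 14 fits each of the 10 genes had a fold change below 0 on the log2 scale.

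Variation among libraries of the same group had not been used to choose the region, and it was tested. The summed level of the 24 V-like genes was set against that of 8 genes of the same structure at the end of chromosome 8, starting between 73152989 and 73774111, which had been singled out as the heavy chain end. Within lymphoma, Pearson's r was -0.69 (two-sided exact permutation p = 0.123, n = 7) and Spearman's rho -0.29 (exact permutation p = 0.556). Within non-lymphoma, r was 0.54 (exact permutation p = 0.238, n = 7) and rho 0.11 (exact permutation p = 0.84). Against the 75 other genes of the region, r was -0.10 (exact permutation p = 0.797, n = 7) within lymphoma and 0.59 (exact permutation p = 0.179, n = 7) within non-lymphoma. None of these 4 correlations passed, with an adjusted exact permutation p of at least 0.317 by Pearson's r and 0.906 by Spearman's rho. For the chromosome 8 genes within lymphoma, r was -0.17 (exact permutation p = 0.858) without replicate 1, which had 0 counts there. The log2 level of that library on chromosome 8 rested on the prior count of 0.5 alone. Without the 2 libraries farthest from the median V-like level, r for the chromosome 8 genes was -0.53 within lymphoma and 0.27 within non-lymphoma. For the other genes of the region it was then 0.19 within lymphoma and 0.91 within non-lymphoma.

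A pair of lymphoma libraries stood at opposite corners. Lymphoma replicate 1, with the highest V-like level on chromosome 26, had 0 counts over the 8 chromosome 8 genes, which allows up to 0.199 CPM. Lymphoma replicate 6 had the lowest V-like level on chromosome 26, but the most counts of the wider short class among lymphoma libraries, 1595. The contrast therefore holds for the 2-exon V-like genes only. This library had 527 counts on chromosome 8, of which 1 gene at 73266605 to 73272384 took 484, or 91.8%. The other 5 lymphoma libraries had 7 to 132 counts there, and the non-lymphoma libraries 74 to 985.

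**Figure D5:**
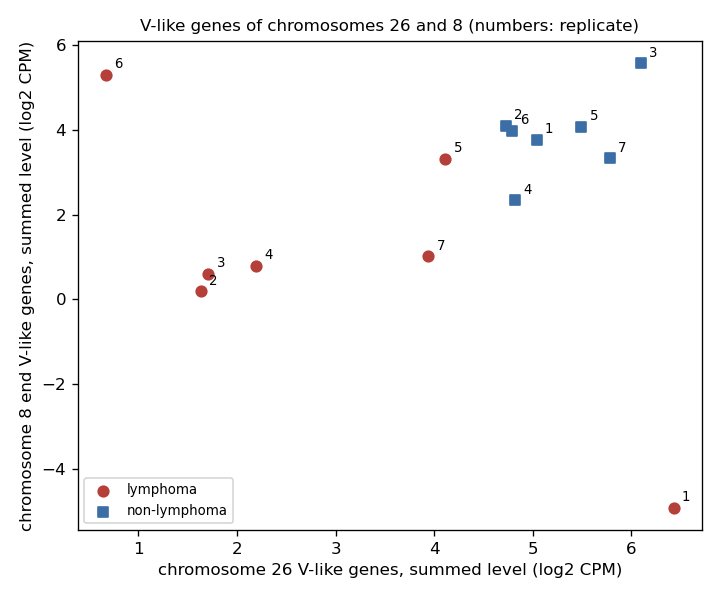
Summed level in log2 CPM of 8 V-like genes at the end of chromosome 8 (vertical axis) against that of the 24 V-like genes of chromosome 26 (horizontal axis), with a point per library numbered by replicate and lymphoma and non-lymphoma in separate colours. Lymphoma replicates 1 and 6 lie at opposite corners, and no correlation within either group passed the exact permutation test.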

How the data were processed

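Per the file headers, the authors deposited 1 table of raw counts, made from 14 alignments with featureCounts 2.0.1 on read pairs over exons, with CanFam3.1 Ensembl gene models. Its command names no option for strand, multi-mapping reads or overlapping genes. Tools listed per the submitters' processing notes are DESeq2, featureCounts, Subread 2.0.1 and HISAT2 2.2.1. The deposited Length column, of another kind than a count, gives exonic bases per gene.

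Groups and replicate numbers come from sample titles. Totals were 9845059 to 21610927 counts. Lymphoma was compared with non-lymphoma over all genes by edgeR 4.0.16 in R 4.3.3 (quasi-likelihood, TMM, filterByExpr, group as the only term, Benjamini-Hochberg at 0.05), checked on simulated data. The standard error of a log2 fold change was its size divided by the square root of F. CPM used TMM factors, and log2 levels of sums a prior count of 0.5. Correlations used exact permutation over pairings in scipy 1.17.1. Wilson intervals and floors of 3 counts cover counting error only. Alternatives included DESeq2 1.42.0.

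Named genes were those leading any library's V-like counts, the 10 highest V-like and 10 highest other genes per kilobase, and called other genes, 24 in all, plus those said to be picked after their values were seen. Members and lists were chosen with earlier results of these data known. B cell, plasma cell, T cell, neutrophil and recombination marker lists could not be matched to identifiers and gave no values.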

Additional observations from a re-analysis of the deposited data

Results flagged for a closer look

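A library set well apart from its group was found in 8 of 62 tests, each over 7 libraries. About 1 in 20, or 3.1, would arise by chance for genes chosen without regard to their values. Some of these genes were chosen for leading a library or for a high mean level, which 1 extreme library can supply. The numbers 8 and 3.1 can therefore not be compared. Values in parentheses are that library's gap to its closest neighbour as a share of the whole range. Lymphoma replicate 1 stood above the other lymphoma libraries in gene 14 (0.81) and gene 29 (0.70). Lymphoma replicate 4 was the only lymphoma library with a count for gene 67, a single one (1). Since the other 6 had 0 counts, the gap share is fixed at its highest value and says nothing of that library. Lymphoma replicate 7 was the highest of its group in gene 79 (0.65). Non-lymphoma replicate 2 was the lowest of its group in V-like genes detected, 10 against 14 in the next library (0.67), and in gene 35 (0.62). Non-lymphoma replicate 3 was the highest in gene 65 (0.67). Non-lymphoma replicate 7 had the highest share of the leading short gene, 47.6% against 33% in the next library (0.64).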

How the results depend on the processing

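Over all genes, 2132 were called, 725 with the replicate block and 3390 with DESeq2. With 1 library left out the count was 1436 to 2516. In the libraries with 5-digit sample numbers, 2 lymphoma and 7 non-lymphoma, 104 were called. The labels do not say whether this form marks a batch. Of the region, 10 genes were called, 3 with the replicate block, 1 in the 5-digit libraries, 16 without a filter, 17 with DESeq2 and 3 to 12 with 1 library left out, 3 without lymphoma replicate 2, 5 without lymphoma replicate 1 or 4 and 6 without non-lymphoma replicate 3 or 5. V-like calls were 4, 2 with the replicate block, 1 in the 5-digit libraries and 2 to 4 with 1 library left out, with 2 without lymphoma replicate 1, 2, 3 or 4. Of the 7 same-numbered pairs, 1 had a correlation of deviations over 0.1, that of replicate 1 at 0.345. This check cannot show whether the replicate numbers pair the libraries.

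The V-like level difference was -2.87 to -1.91 and that of the other genes -0.57 to -0.36 with 1 library left out, and the other genes gave -0.059 in the 5-digit libraries. The difference in median leading share, -6.06 percentage points, was -7.11 to 0.01 with 1 library left out, -11.3 for lengths of 300 to 450 bases, 2.90 after thinning to 54 V-like counts (11 libraries) and 10.4 in the wider short class, which was chosen after seeing the data. Causes were not tested. The difference in median effective number, -0.51, was -0.75 to 0.05 with 1 library left out, 0.36 for these lengths and -2.24 in the wider class. The difference in mean V-like genes detected, -7, was -7.67 to -6.33 with 1 library left out and -15 in the wider class. Within lymphoma, r with the other genes, -0.10, was 0.071 as Spearman's rho, 0.185 on raw totals, 0.19 without the 2 farthest libraries and -0.45 to 0.46 with 1 library left out. With 1 library left out, r with the chromosome 8 genes was -0.86 to -0.17 within lymphoma and 0.02 to 0.74 within non-lymphoma, and r with the other genes within non-lymphoma was 0.16 to 0.96, passing an unadjusted 0.05 without replicate 7 (exact permutation p = 0.0417). Counts of 54 or fewer in 4 lymphoma libraries limit every V-like share.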

Other observations

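A pair of gene couples in the region had mirrored structures on opposite strands. Genes 14 and 23, with exons of 7 and 407 bases, lay around a midpoint of 25232925. Genes 11 and 25, with exons of 46, 54 and 269 bases, lay around a midpoint of 25233103. Genes 54 and 62 had exons of the same 46 and 353 bases on the same strand. Whether the sequences of these pairs match was not tested.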
